A study of Homo sapiens with 59 samples.

Results

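The mRNA of 10 genes under the transcription factor NF-kB was measured once, after 24 h of treatment with herbal extracts, in A549, a human lung carcinoma cell line that is long established. The genes are the neutrophil chemokines CXCL8, CXCL1, CXCL2, CXCL3 and CXCL5, the feedback inhibitors TNFAIP3, NFKBIA and NFKBIE, the survival gene BIRC3 and the adhesion gene ICAM1. They were chosen by symbol, and all 10 were found among the 60675 genes of the deposited table. All 10 also passed the filter on low counts, which kept 18568 genes for testing.

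NF-kB is held in the cytoplasm by inhibitor proteins of the IkB family, and signals such as TNF, interleukin-1 or bacterial products release it into the nucleus. There it switches on genes that call in neutrophils, and also its own inhibitors, which end the response. Airway epithelial cells are a known source of these chemokines during infection and injury of the lung. The chemokines carry the ELR amino acid motif and bind the receptor CXCR2 on neutrophils, and some of them also CXCR1. ICAM1 is the surface protein to which neutrophils then adhere.

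The cells received 1 of 8 medicines, each as a 70% ethanol extract at 3 doses, or the solvent DMSO alone (vehicle, n = 3). The doses were 110, 22 and 4.4 µg/mL for Coptidis Rhizoma (n = 2 libraries each) and 190, 38 and 7.6 µg/mL for Bupleuri Radix (n = 3 each). The other medicines were given at 500, 100 and 20 µg/mL. These were Zizyphi Fructus (n = 2), Citri Unshius Pericarpium (n = 3), Cimicifugae Rhizoma (n = 3), Yijung-tang (n = 2) and Banhasasim-tang (n = 1). Aconiti Lateralis Radix Preparata, the processed lateral root of aconite, had 3, 2 and 3 libraries at its high, medium and low dose. Yijung-tang and Banhasasim-tang are mixed prescriptions, not single herbs. The series text says that an extract with an IC20 below 500 µg/mL was given at that concentration and at dilutions of it. The DMSO content of the vehicle is 0.1% by the sample labels but 2% by the series text.

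Libraries held 17214755 to 39751161 expected counts, with a median of 26165657. Levels below are CPM, the gene's share of the library scaled by TMM, which corrects for library size and composition. All 6 epithelial markers were above 1 CPM in vehicle (EPCAM, CDH1, KRT7, KRT8, KRT18, KRT19). The surfactant genes that mark alveolar type 2 cells were nearly absent (SFTPB highest at 0.322 CPM in any library). NAPSA, a further marker of these cells, stood at 1.1 CPM in vehicle and at most at 1.91 in any library. Of 9 neutrophil and myeloid markers, PTPRC, CSF3R, FCGR3B and S100A8 were at 0 in vehicle and reached at most 0.0736 CPM in any library. Another 3 were above 1 CPM in vehicle, CD68 at 6.18, CD14 at 1.95 and ITGAM at 1.14 CPM. The receptors CXCR1 and CXCR2 were at 0 in vehicle, with at most 3 counts in any library. On the first principal component, 4 libraries stood apart from the rest: replicate 2 of Cimicifugae Rhizoma (medium dose, low dose) and replicate 3 of Citri Unshius Pericarpium (high dose, medium dose). Results of those extracts are given with and without them. In bulk RNA, a change in the share of cells that express a gene and a change in RNA per cell cannot be told apart.

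The 5 chemokine genes lie within 359 kb of chromosome 4, between positions 73740506 and 74099293 (GRCh38, GENCODE 29). TNFAIP3 and NFKBIE are on chromosome 6, NFKBIA on chromosome 14, BIRC3 on chromosome 11 and ICAM1 on chromosome 19. A RefSeq start window was matched for 9 of the 10 genes (GRCh38.p14), all but NFKBIE. The 250 bases before each start were searched on both strands for GGNNNTTCC, a core of the NF-kB motif. All 9 held a match, against 17.1% of the 35116 RefSeq windows of that length. At least 2 matches were found in 5 of the 9 (CXCL1, CXCL2, CXCL3, TNFAIP3 and NFKBIA), against 1.89% of the windows. These genes are textbook NF-kB targets, so the matches describe the set and are not a result of the treatment. The motif TGANTCA of AP-1, the FOS and JUN dimer, was found in CXCL8 alone of the 9, and in 6.6% of the windows. CXCL2 and CXCL1 were identical at 51 of the 53 bases before the start, and CXCL3 matched each of them at 47. The stretches below are shown because each holds a match. In GENCODE 29, whose gene starts can lie upstream of the RefSeq start, all 30 printed bases of CXCL2, CXCL3, CXCL5 and ICAM1 and 29 of the 30 of TNFAIP3 lie within an exon, and none of those of CXCL8, CXCL1, NFKBIA and BIRC3. They are written 5′ to 3′ on the gene's own strand, with the matches in capitals, on whichever strand they lie. The stretches are CXCL8 at chr4:73740419-73740505 (+), CXCL1 at chr4:73869273-73869372 (+), CXCL2 at chr4:74099249-74099278 (-), CXCL3 at chr4:74038743-74038772 (-), CXCL5 at chr4:73998743-73998772 (-), TNFAIP3 at chr6:137867187-137867216 (+), NFKBIA at chr14:35404770-35404869 (-), BIRC3 at chr11:102317264-102317363 (+) and ICAM1 at chr19:10270924-10270953 (+).
CXCL8: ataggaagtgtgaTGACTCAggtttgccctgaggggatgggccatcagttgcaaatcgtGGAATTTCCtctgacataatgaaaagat
CXCL1: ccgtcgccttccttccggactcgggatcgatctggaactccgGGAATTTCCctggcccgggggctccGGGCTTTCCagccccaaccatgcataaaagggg
CXCL2: gctccgGGAATTTCCctggcccgggactcc
CXCL3: ctccgGGAATTTCCctggcccggccgctcc
CXCL5: ttcagGGAATTTCCccagcatcccaaagct
TNFAIP3: actttGGAAAGTCCcgtGGAAATCCCcggg
NFKBIA: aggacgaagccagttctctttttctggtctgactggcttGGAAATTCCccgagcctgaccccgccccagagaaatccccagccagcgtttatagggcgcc
BIRC3: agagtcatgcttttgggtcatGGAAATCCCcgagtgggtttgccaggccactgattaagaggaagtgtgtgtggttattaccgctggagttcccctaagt
ICAM1: gctttagcttGGAAATTCCggagctgaagc
The first capitals of CXCL8 are its AP-1 match, which begins 137 bases before the start, and the second its NF-kB match, which begins 91 bases before it. The core GGAATTTCC is shared by all 5 chemokine genes. CXCL1, CXCL2 and CXCL3 hold a second core, GGGCTTTCC, that begins 53 bases before each start. NFKBIA and ICAM1 both hold GGAAATTCC, and TNFAIP3 and BIRC3 both hold GGAAATCCC.

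**Figure D1:**
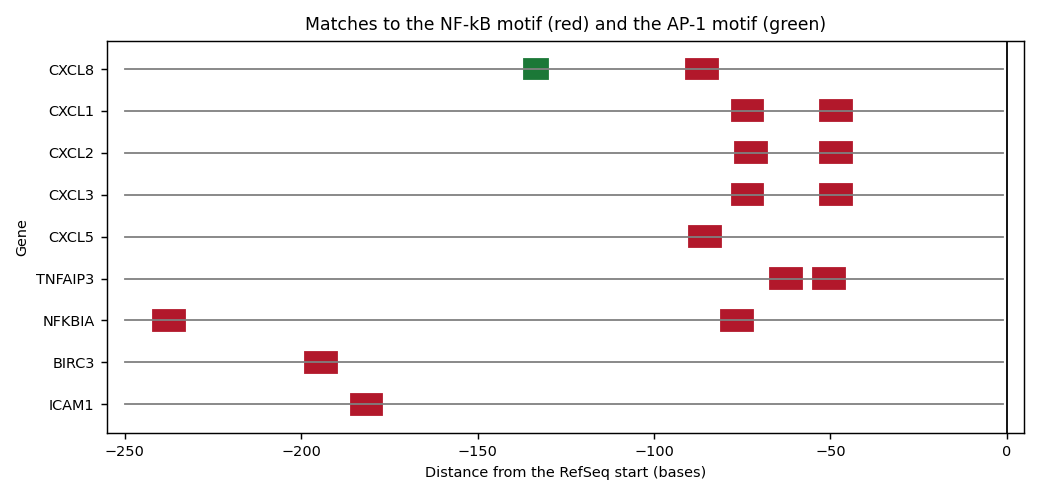
Position of motif matches in the 250 bases before the RefSeq start of 9 genes; the x axis is the distance from the start in bases, red boxes are NF-kB matches (GGNNNTTCC, both strands) and the green box is the AP-1 match (TGANTCA). All matches of the 5 chemokine genes to the NF-kB motif begin between 91 and 53 bases before the start, whereas the match of BIRC3 begins 199 and that of ICAM1 186 bases before it.

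In vehicle the members spanned a wide range of levels. Per kilobase of exon, CXCL5 stood highest at 33.7 CPM per kb, followed by NFKBIA at 19.4 and BIRC3 at 5.18. NFKBIE stood at 2.52, CXCL2 at 1.63, TNFAIP3 at 1.16, CXCL1 at 0.87 and CXCL3 at 0.682 CPM per kb. CXCL8 (0.452) and ICAM1 (0.208) were the lowest of the set on this scale. CXCL5 is also known as ENA-78. CXCL8 in vehicle rested on few reads, with 0.802, 0.9 and 1.38 CPM, which limits the precision of every fold change against it. The spread of a member over the 59 libraries, highest over lowest CPM, ran from 1.8 in NFKBIA and 3 in NFKBIE to 50.2 in CXCL8. Of the 10 members, 8 had their highest group mean at the medium dose of Aconiti Lateralis Radix Preparata. The exceptions were NFKBIE, highest in Citri Unshius Pericarpium at the high dose, and ICAM1, highest in the single library of Banhasasim-tang at the high dose. With the 25 groups in order of level, most neighbours could not be separated: the libraries of adjacent groups overlapped in 19 of 24 pairs for CXCL8 and in all 24 for NFKBIE.

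**Figure D2:**
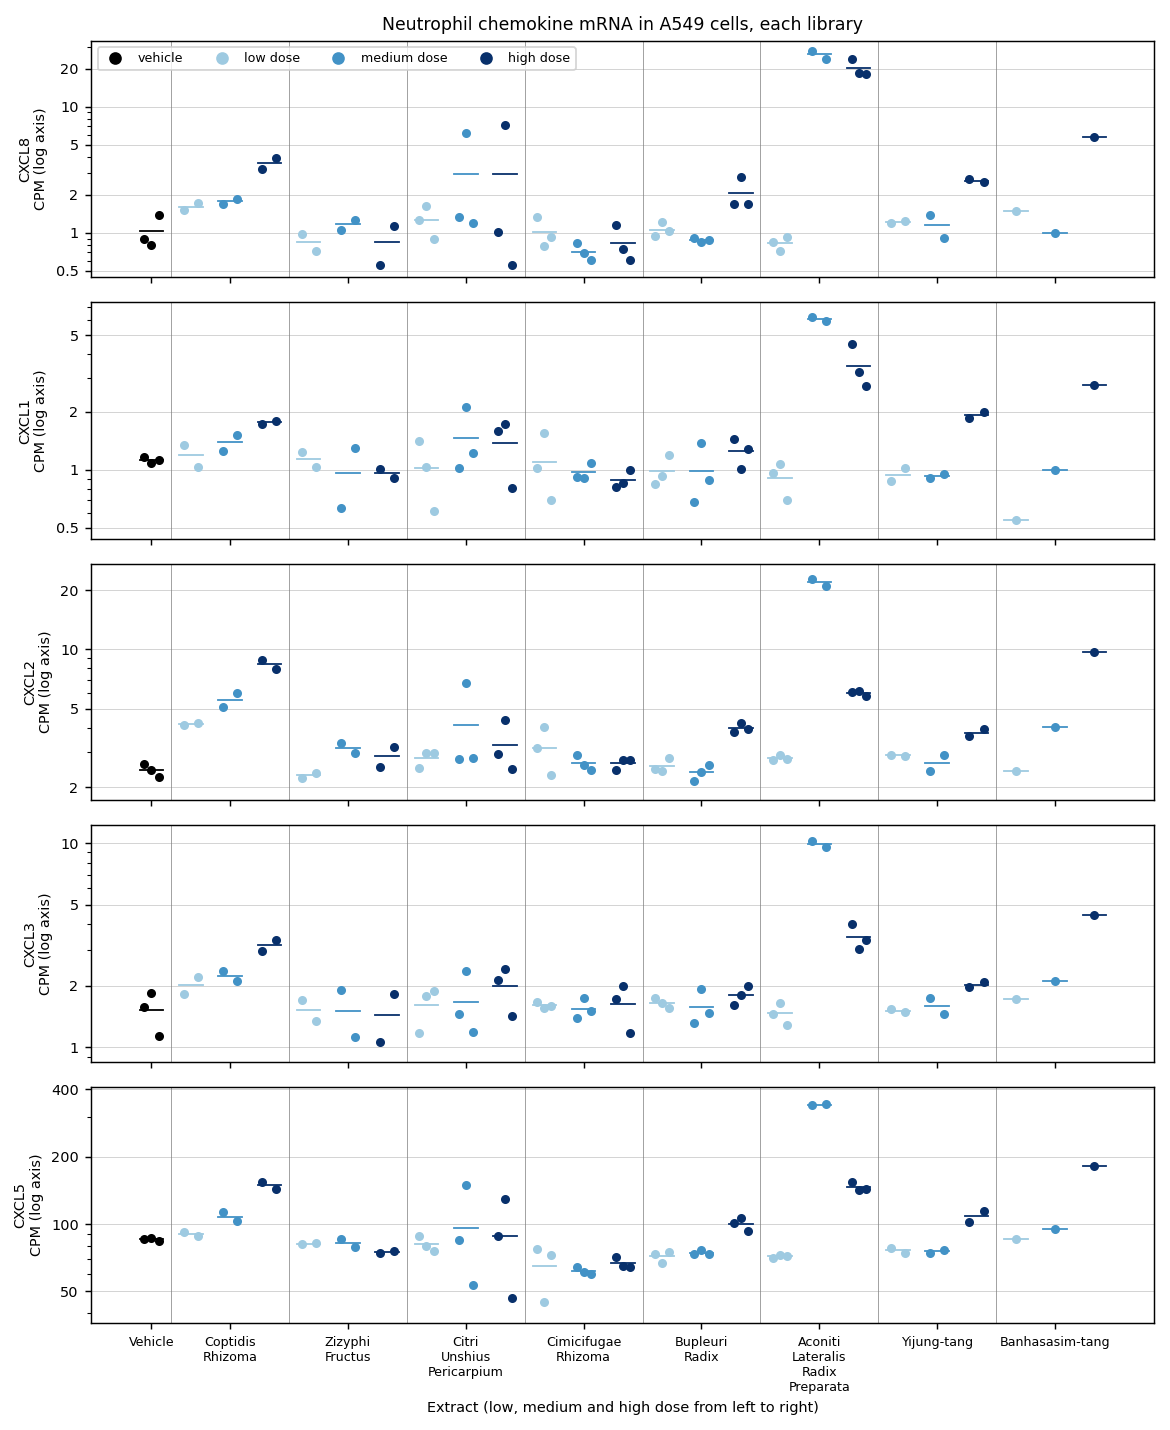
CPM of the 5 chemokine genes (log axis) in each of 59 libraries, by extract and dose; points are libraries, short lines are group means, and colour gives the dose. The medium-dose libraries of Aconiti Lateralis Radix Preparata were the highest for all 5 genes, with CXCL8 at 24.1 and 27.8 CPM against 0.802 to 1.38 in vehicle.

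At 100 µg/mL, its medium dose, Aconiti Lateralis Radix Preparata raised 9 of the 10 members against vehicle. Over all tested genes, 17.5% were called in this comparison and 8.23% were called higher. The background differed with the libraries in the fit. Here 3253 genes were called, 6018 without the 4 libraries that stood apart and 7116 with only the libraries compared. The cause was not tested, and all 10 members were called in both alternatives. Called means an adjusted p under 0.05 in the quasi-likelihood test of edgeR, and log2 fold changes are given with their standard error. CXCL8, the main human neutrophil attractant, stood at 27.8 and 24.1 CPM against 0.9, 0.802 and 1.38 in vehicle. No library of the groups overlapped, and the log2 fold change was 4.68 ± 0.52 (adjusted p = 7.37e-09). CXCL2 reached 22.7 and 21.1 CPM from 2.25 to 2.62 in vehicle, a log2 fold change of 3.16 ± 0.22 (adjusted p = 7.17e-14). CXCL3 reached 10.2 and 9.58 CPM from 1.13 to 1.85, which is 2.69 ± 0.23 on the log2 scale. CXCL1 reached 6.19 and 5.91 CPM from 1.08 to 1.17, a log2 fold change of 2.42 ± 0.29. These 3 are close paralogs, the GRO chemokines, and share 9.1% to 13.6% of their 31-base words with the nearest member. Expected counts with decimals, the mark of reads shared between genes, occurred in at most 2 of 59 libraries for CXCL2 and CXCL3 and in none for CXCL1. CXCL5 rose from 84.2 to 86.4 CPM in vehicle to 340 and 343 CPM, a log2 fold change of 2.00 ± 0.24.

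The feedback, survival and adhesion genes were read at the same dose. TNFAIP3, which encodes the ubiquitin-editing enzyme A20 that shuts NF-kB signalling off, stood at 16 and 16.5 CPM against 5.33 to 6.14 in vehicle. That is a log2 fold change of 1.47 ± 0.16. NFKBIA, which encodes the inhibitor IkB-alpha, stood at 74 and 71 CPM against 43.1, 45.3 and 49.8, a log2 fold change of 0.65 ± 0.13 (adjusted p = 0.000252). NFKBIE, the gene of IkB-epsilon, was the member that did not pass, with 10.3 and 8.85 CPM against 6.07 to 6.97 (0.56 ± 0.23, adjusted p = 0.0985). BIRC3, which encodes the apoptosis inhibitor cIAP2, reached 99.3 and 95.9 CPM from 37.3 to 41.2 (1.33 ± 0.16). ICAM1 reached 1.94 and 2.08 CPM from 0.705 to 0.871 (1.39 ± 0.31, adjusted p = 0.000782). ICAM1 rested on 12 to 74 expected counts per library, and its counts had decimals in 23 of the 59 libraries, the most of any member. The opposite-strand genes LIMASI and ICAM4-AS1 held at most 6. The median log2 fold change of the 10 members was 1.73, beside -0.01 over all tested genes. All 9 calls were kept in each of the 11 alternative settings, which include leaving out each library.

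**Figure D3:**
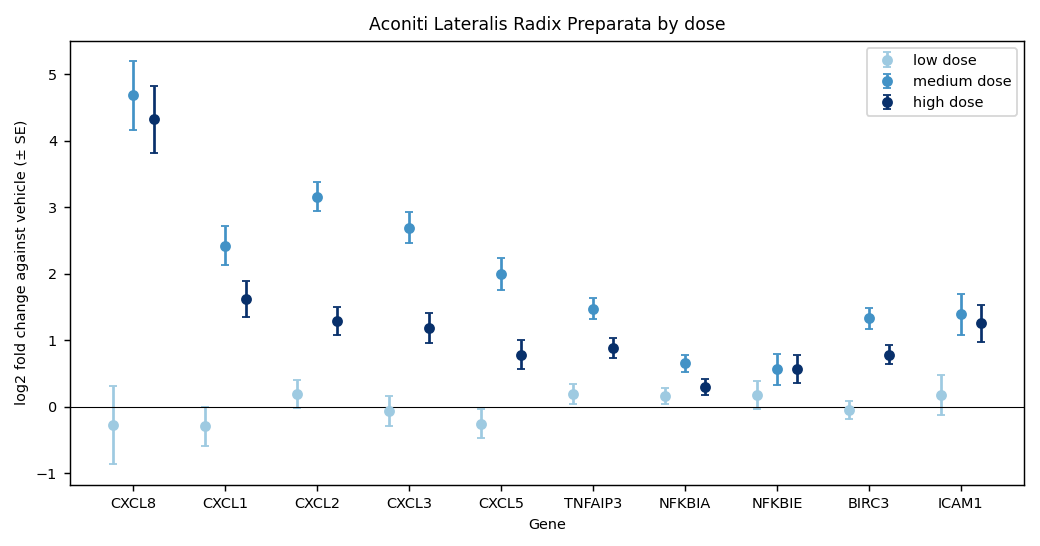
Log2 fold change against vehicle (y axis, ± SE) of the 10 members in cells given Aconiti Lateralis Radix Preparata at the low, medium and high dose. The low-dose points lie near 0, and CXCL2, CXCL3 and CXCL5 lie higher at the medium than at the high dose.

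The high dose of the same extract (500 µg/mL) raised 8 of the 10 members, all but NFKBIA and NFKBIE, where 4.65% of all tested genes were called and 2.56% were called higher. CXCL8 stood at 23.8, 18.4 and 18.3 CPM, well clear of vehicle, with a log2 fold change of 4.32 ± 0.50 (adjusted p = 1.67e-07). CXCL1 stood at 4.48, 3.22 and 2.74 CPM (1.62 ± 0.27). CXCL2 stood at 6.08, 6.14 and 5.77 CPM (1.29 ± 0.21), and CXCL3 at 4.03, 3.04 and 3.35 CPM (1.18 ± 0.22). All 3 GRO genes were above every vehicle library. TNFAIP3 stood at 11.1, 11.4 and 9.91 CPM (0.88 ± 0.15) and BIRC3 at 67.6, 67.6 and 65.8 CPM (0.78 ± 0.14). ICAM1 stood at 2.08, 2.18 and 1.19 CPM, with 1 library lower than the other 2 but above vehicle (1.25 ± 0.28, adjusted p = 0.00427). CXCL5 stood at 155, 142 and 144 CPM (0.78 ± 0.22, adjusted p = 0.0256), and this call was lost when any 1 of the 6 libraries was left out (highest adjusted p = 0.0906). NFKBIA stood at 57.4, 56.6 and 55.4 CPM, above all vehicle libraries (0.29 ± 0.12, adjusted p = 0.194). NFKBIE stood at 9.69, 10.2 and 8.83 CPM (0.56 ± 0.21, adjusted p = 0.142).

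The low dose (20 µg/mL) gave no call among the members in edgeR or DESeq2, no unadjusted p below 0.05, and 0% called over all genes. CXCL8 stood at 0.838, 0.716 and 0.931 CPM there, within or below the vehicle range. The interval of its log2 difference from vehicle ran from -1.43 to 0.87, so a change of that size could not be seen at this depth. By their library codes all 3 doses belong to 1 library set, so they can be compared without the vehicle. What a set stands for is not stated in the labels. The high dose exceeded the low dose in 8 members, where 3.29% of all genes were called and 1.56% were called higher, with CXCL8 at 4.60 ± 0.50 and CXCL1 at 1.92 ± 0.28 on the log2 scale. The ICAM1 call in that comparison (1.07 ± 0.27) was lost when replicate 1 or 2 of the high dose, or replicate 2 or 3 of the low dose, was left out, with an adjusted p of at most 0.123. The medium dose exceeded the low dose in 9 members, again all but NFKBIE, where 17.8% of all genes were called and 7.93% were called higher. The NFKBIA call there was lost without replicate 1 of the medium dose (0.48, adjusted p = 0.0504).

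The medium dose was set against the high dose after the levels had been seen, and 5 members were higher at the medium dose, where 7.78% of all genes were called and 3.14% were called higher. CXCL2 was 3.65-fold higher (log2 difference 1.87 ± 0.20, adjusted p = 2.55e-08), CXCL3 2.85-fold and CXCL5 2.32-fold. TNFAIP3 differed by 0.59 ± 0.15 and BIRC3 by 0.54 ± 0.16 on the log2 scale. These 2 calls were the less firm. TNFAIP3 was lost without either medium-dose library or without replicate 3 of the high dose, and BIRC3 without any 1 of the 5 libraries (highest adjusted p = 0.113 and 0.176), which leaves 3 to 5 calls. CXCL8 differed by 0.37 ± 0.44 (interval -0.49 to 1.22, adjusted p = 0.764), and CXCL1 by 0.80 ± 0.27 (adjusted p = 0.0573). Whether the dose difference of CXCL2 differs from that of CXCL8 was not tested. NFKBIE had the same mean at both doses, 9.58 and 9.59 CPM, with a log2 interval of -0.45 to 0.44.

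Other genes of the pathway were read from lists around the members. Among 22 tested NF-kB subunits, kinases and inhibitors, 5 were higher and 1 lower at the medium dose of Aconiti Lateralis Radix Preparata. Their median log2 fold change was 0.20. At this dose 17.5% of all tested genes were called and 8.23% were called higher. RELB, a partner subunit of the noncanonical branch, rose from 15.4 to 44.1 CPM (1.52 ± 0.25). NFKB2, the precursor of its p52 partner, rose from 61.1 to 129 CPM (1.08 ± 0.14). TRAF1, a signalling adaptor, rose from 3.83 to 8.44 CPM, and RELA, the main activating subunit, from 73.3 to 106 CPM. Of 19 receptors and adaptors, 4 were higher and 2 lower. IRAK2, a kinase downstream of the interleukin-1 and Toll-like receptors, rose from 8.44 to 36.6 CPM (2.12 ± 0.26), whereas TLR1 fell from 1.58 to 0.682 CPM. Of 15 other survival, adhesion and stress genes 11 were higher and none lower, PLAU (1.08 ± 0.15), SOD2 (0.57 ± 0.09) and CFLAR (0.56 ± 0.08) among them. At the high dose 4 of these 15 were higher and none lower, as were 2 of the 19 receptors and adaptors. Of the 22 subunits, kinases and inhibitors, 4 were higher and 1 lower. There 4.65% of all tested genes were called and 2.56% were called higher. PLAU encodes the urokinase protease, SOD2 the mitochondrial superoxide dismutase and CFLAR the caspase-8 inhibitor cFLIP.

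Most other NF-kB cytokines were too low to test. Of 21 listed, 10 were tested, 2 of them higher and 2 lower at the medium dose of Aconiti Lateralis Radix Preparata. The shares over all tested genes were 17.5% called and 8.23% called higher. IL11, a cytokine of the interleukin-6 family, rose from 31.4 to 45.1 CPM, and TNFSF15 fell from 1.75 to 0.682 CPM. CSF1, the macrophage growth factor, fell from 39.8 to 32.8 CPM. IL6, the other higher gene, stood at 0.350 CPM against 0.013 in vehicle, with no more than 13 counts in any library. With a minimum count of 10, it may have passed the filter only through groups where it was high. Its call is therefore no support. TNF was at 0 in vehicle and had at most 3 counts in any library, IL1B at most 4 and CSF3 at most 2. CXCL6, a related ELR chemokine, was at 0 in vehicle with at most 2 counts. CCL2, which draws monocytes and is also under NF-kB, stood at 6.09 CPM in vehicle and at most at 10.2 in any library.

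AP-1 and C/EBP factors are known to act beside NF-kB at chemokine promoters. Of 11 AP-1 and C/EBP genes, 7 were higher and 1 lower at the medium dose of Aconiti Lateralis Radix Preparata, where 8.23% of all tested genes were called higher, with a median log2 fold change of 1.28. The lower gene was CEBPD, which fell from 10.6 to 5.59 CPM. FOSB rose from 1.23 to 45.4 CPM, FOS from 3.07 to 24.1 CPM, ATF3 from 8.35 to 45.3 CPM and JUN from 32.7 to 84.2 CPM. At the high dose, where 2.56% of all genes were called higher, 3 were higher and 1 lower, with FOSL1 at 1.40 ± 0.29 and FOSB at 2.32 ± 0.54 on the log2 scale. ZFP36, whose protein binds AU-rich sequences in chemokine mRNA and speeds its decay, rose from 43.2 to 78.1 CPM at the medium dose. It was 1 of 2 higher genes among 8 factors that bind such sequences. Others of the 8 had lower means there than in vehicle, among them TIA1 (60 against 76.9 CPM) and HNRNPD (227 against 254 CPM). FOS, FOSB, ATF3, JUN and ZFP36 were also called higher at the medium than at the high dose.

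Other measures moved with the medium dose of Aconiti Lateralis Radix Preparata. The summed level of 9 neutrophil and myeloid markers was 29.8 to 32 CPM, against 8.54 to 10 in vehicle and 16.4 to 21.7 at the high dose. In vehicle, 3 of the 9 were above 1 CPM, and CD68, a lysosomal protein gene, was the highest at 6.18 CPM. The highest values in any library were 30.4 CPM for CD68, 3.16 for CD14 and 2.05 for ITGAM. CD68 therefore held most of the sum at the medium dose. PTPRC, CSF3R, FCGR3B and S100A8 stayed below 0.1 CPM in all libraries, and LYZ reached 0.105 and S100A9 0.218 CPM. The summed level of 5 fibroblast markers was 5.22 to 5.35 CPM, against 34.5 to 36 in vehicle, and COL1A1 alone held 32.7 CPM in vehicle. The 6 epithelial markers summed to 6480 to 6810 CPM, against 8190 to 8530. The part of these shifts in the chemokine result was not tested.

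**Figure D4:**
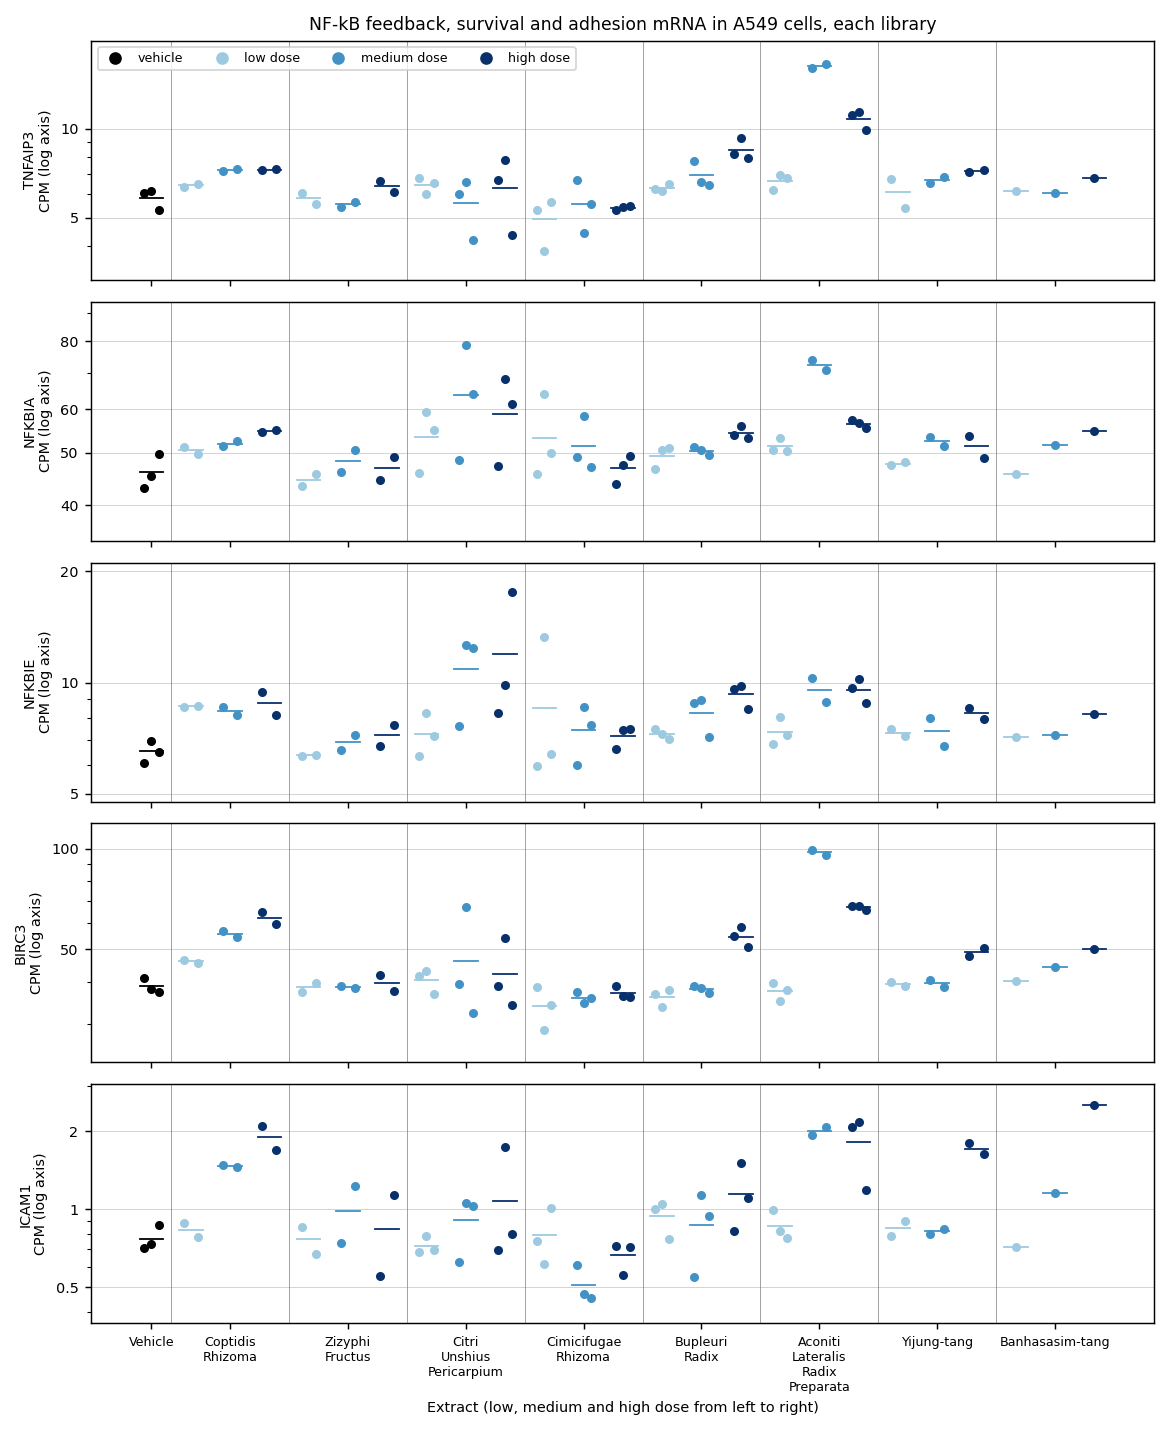
CPM of TNFAIP3, NFKBIA, NFKBIE, BIRC3 and ICAM1 (log axis) in each of 59 libraries, by extract and dose; points are libraries and short lines are group means. TNFAIP3 and BIRC3 were highest in the 2 medium-dose libraries of Aconiti Lateralis Radix Preparata, and NFKBIE was highest in Citri Unshius Pericarpium at the high dose, where 1 library stood at 17.6 CPM.

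Coptidis Rhizoma at its high dose (110 µg/mL) raised 6 members, where 12.6% of all tested genes were called and 6.41% were called higher. CXCL2, with the smallest adjusted p of the members, stood at 8.87 and 7.96 CPM against 2.25 to 2.62 in vehicle, a log2 fold change of 1.78 ± 0.22 (adjusted p = 1.49e-07). CXCL8 stood at 3.18 and 3.92 CPM (1.82 ± 0.56, adjusted p = 0.0239), CXCL3 at 2.97 and 3.37 CPM (1.05 ± 0.25) and CXCL5 at 155 and 144 CPM (0.81 ± 0.24). BIRC3 stood at 64.9 and 59.6 CPM (0.68 ± 0.16), and ICAM1 at 2.10 and 1.69 CPM (1.3 ± 0.31). CXCL1 did not pass, with 1.73 and 1.80 CPM (0.65 ± 0.32, adjusted p = 0.201). TNFAIP3 stood at 7.26 and 7.29 CPM (0.31 ± 0.16, adjusted p = 0.243), NFKBIA at 54.5 and 55 CPM and NFKBIE at 9.45 and 8.15 CPM, none of them called. The calls fell to 3 without replicate 2 of this dose and to 4 without replicate 3. CXCL2, CXCL3 and BIRC3 were kept in all 11 alternative settings. CXCL8 was lost without vehicle replicate 1 or 2, or without either treated library (highest adjusted p = 0.164).

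The mitochondrial ribosomal RNA share was 6.09% and 6.42% in these 2 libraries, against 2.24% to 2.43% in vehicle. It was higher at the medium dose (11.1% and 10.3%) and at the low dose (9.36% and 9.13%), where 1 and 0 members were called. At the high dose the myeloid marker sum was 11.2 to 12 CPM, against 8.54 to 10 in vehicle. The epithelial marker sum was 5990 to 6040 CPM, against 8190 to 8530, and the fibroblast marker sum 27.5 to 29 CPM, against 34.5 to 36. The part of these measures in the result was not tested. At this dose 12.6% of all tested genes were called and 6.41% were called higher. Among the lists, 3 NF-kB pathway genes were higher and 2 lower of 22. TRAF1 rose from 3.83 to 9.72 CPM (1.34 ± 0.14) and NFKB2 from 61.1 to 93.7 CPM, whereas ZC3H12A, the gene of an RNase that degrades cytokine mRNA, fell from 17.3 to 10.6 CPM. IRAK2 rose from 8.44 to 26.1 CPM, 1 of 3 receptors and adaptors higher of 19, with 1 lower. Of the 11 AP-1 and C/EBP genes 4 were higher and 1 lower, led by JUN (0.77 ± 0.11) and ATF3 (1.17 ± 0.23). IL11, by contrast with its rise under Aconiti Lateralis Radix Preparata, fell from 31.4 to 14.4 CPM (-1.13 ± 0.15), and the 2 responses were not tested against each other.

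At the medium dose of Coptidis Rhizoma (22 µg/mL) CXCL2 was the only call, where 3.27% of all genes were called and 1.76% were called higher, with 5.10 and 6.01 CPM (1.18 ± 0.23, adjusted p = 0.00105). The call was lost without replicate 3 of that dose (adjusted p = 0.0596). At the low dose (4.4 µg/mL) CXCL2 stood at 4.14 and 4.25 CPM, above every vehicle library (0.78 ± 0.23, adjusted p = 0.193). There edgeR and DESeq2 called none of the members, 1 had an unadjusted p below 0.05, and 0.447% of all genes were called. CXCL2 was also the only member called between the high and the low dose, at 1.00 ± 0.24 on the log2 scale, where 2.31% of all genes were called and 0.932% were called higher. That call was lost when any 1 of the 4 libraries was left out (highest adjusted p = 0.158).

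Zizyphi Fructus shares the library set of Coptidis Rhizoma, and the high doses differ, 500 against 110 µg/mL. Coptidis Rhizoma stood higher in 6 members, where 8.12% of all genes were called and 4.1% were called higher: CXCL8, CXCL2, CXCL3, CXCL5, BIRC3 and ICAM1. CXCL2 differed by 1.54 ± 0.25 and CXCL8 by 2.04 ± 0.64 on the log2 scale. The count fell to 2 without replicate 2 of either extract and to 3 without replicate 3 of either, and CXCL2 was kept in all 10 alternatives. No dose of Zizyphi Fructus had a member called against vehicle in edgeR or DESeq2. No unadjusted p was below 0.05, and 0% of all genes were called at each dose.

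Bupleuri Radix shares the library set of Aconiti Lateralis Radix Preparata. At its high dose (190 µg/mL) the calls were 2 of the feedback and survival genes, where 3.36% of all genes were called and 2.05% were called higher. TNFAIP3 stood at 8.19, 9.33 and 7.95 CPM (0.54 ± 0.15, adjusted p = 0.031) and BIRC3 at 54.7, 58.3 and 50.9 CPM (0.49 ± 0.14, adjusted p = 0.0474). Both were above every vehicle library. Neither call was firm: none of the members was called when any 1 of the 3 vehicle libraries or replicate 1 or 2 of the extract was left out, and 1 was called without replicate 3. CXCL8 stood at 1.69, 2.77 and 1.69 CPM (1.03 ± 0.53, adjusted p = 0.39), and CXCL2 at 3.79, 4.22 and 3.94 CPM (0.70 ± 0.21, adjusted p = 0.0539). Against its own low dose (7.6 µg/mL), BIRC3 was called at 0.60 ± 0.14 (adjusted p = 0.0159), where 1.58% of all genes were called and 1.02% were called higher. This call was lost without replicate 1 or 2 of either dose (highest adjusted p = 0.115).

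Set directly against Aconiti Lateralis Radix Preparata, high dose to high dose, Bupleuri Radix was lower in CXCL8 (-3.29 ± 0.46), CXCL1 (-1.48 ± 0.27) and CXCL3 (-0.95 ± 0.22), where 1.33% of all genes were called and 0.474% were called lower. The doses differ, 190 against 500 µg/mL. CXCL3 was lost without replicate 1 or 2 of Bupleuri Radix or replicate 1 of Aconiti Lateralis Radix Preparata (highest adjusted p = 0.105). TNFAIP3 differed by -0.35 ± 0.14 (adjusted p = 0.411), with a log2 interval of -0.62 to -0.07. NFKBIA (-0.06 ± 0.12) and NFKBIE (-0.04 ± 0.20) stood at similar means in both extracts, with intervals of -0.29 to 0.18 and -0.45 to 0.36.

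Yijung-tang at the high dose gave a single call, ICAM1, where 1.37% of all genes were called and 0.781% were called higher. ICAM1 stood at 1.80 and 1.63 CPM against 0.705 to 0.871 in vehicle (1.16 ± 0.31, adjusted p = 0.0478). That call was lost when any 1 of the 5 libraries was left out. CXCL8 stood at 2.65 and 2.54 CPM, above every vehicle library (1.36 ± 0.57, adjusted p = 0.317). CXCL1 stood at 1.87 and 2.00 CPM (0.77 ± 0.31, adjusted p = 0.288). Between the high and the low dose of Yijung-tang none of the members was called by edgeR or DESeq2, with 2 unadjusted p below 0.05 and 0.431% of all genes called.

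Banhasasim-tang had 1 library per dose, so its values carry no test. At the high dose 6 members were more than 1.5-fold above the vehicle mean, as were 12.5% of all tested genes. CXCL8 stood at 5.71 CPM (5.55 times the vehicle mean), CXCL2 at 9.69 CPM (3.97 times), ICAM1 at 2.53 CPM (3.29 times) and CXCL5 at 181 CPM (2.11 times). CXCL1 and CXCL3 were the other 2. None was as far below, against 9.38% of all genes. The mitochondrial ribosomal RNA share of this library was 15.2%, that of the medium-dose library 11.5% and that of the low-dose library 3.87%, against 2.24% to 2.43% in vehicle, and its part in these values was not tested. The high-dose library held the third highest group level of CXCL8, after the medium and high doses of Aconiti Lateralis Radix Preparata. Its medium dose had CXCL2 alone past that fold upward, at 4.05 CPM, as were 8.15% of all genes, and none downward (6.2%). At the low dose CXCL1 alone passed it, downward, at 0.548 CPM, as did 5.79% of all genes, and none upward (7.29%).

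The replicates of Citri Unshius Pericarpium differed widely. At the high dose CXCL8 stood at 1.02, 7.14 and 0.556 CPM, and at the medium dose at 1.33, 6.23 and 1.19 CPM. In both cases replicate 2 was high and the other 2 were within or below the vehicle range. The same libraries were the highest of their groups in CXCL2 (4.37 and 6.74 CPM), CXCL5 (130 and 150 CPM) and BIRC3 (54 and 66.9 CPM). Replicate 2 was not among the 4 libraries that stood apart. The only call at the high dose was NFKBIE (0.86 ± 0.21, adjusted p = 0.0336), where 4.42% of all genes were called and 3.52% were called higher. NFKBIE stood at 8.28, 9.86 and 17.6 CPM, and the highest library is replicate 3, which stood apart on the first principal component. The call was lost without that library, and without any 1 of the vehicle libraries (highest adjusted p over the alternatives = 0.587). Without the 4 libraries that stood apart it was 0.49 on the log2 scale (adjusted p = 0.0611). With replicate 1 left out instead, 4 members were called. At the medium dose none of the members was called by edgeR or DESeq2, with 4 unadjusted p below 0.05 and 0% of all genes called. Without replicate 1, 4 members were called. Without the 4 libraries that stood apart 6 were, in a fit that called 515 genes over all genes. The share over all genes was not counted in any fit that left out 1 library. The high and low dose showed no call among members, where 3.54% of all genes were called, with 3 unadjusted p below 0.05 and 1 call in DESeq2. With the replicate number as a block, 1 member was called, as it was without the 4 libraries. Over all genes these fits called 796 and 156.

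Against Cimicifugae Rhizoma at the same 500 µg/mL, Citri Unshius Pericarpium was higher in CXCL8 (1.98 ± 0.53, adjusted p = 0.0269) and NFKBIE (0.72 ± 0.21, adjusted p = 0.0365), where 7.67% of all genes were called and 6.26% were called higher. Without Citri Unshius Pericarpium replicate 2, the log2 difference of CXCL8 was -0.03 (adjusted p = 0.98). NFKBIE was lost without Citri Unshius Pericarpium replicate 3, and without the 4 libraries that stood apart (0.35, adjusted p = 0.165). Both were lost without any 1 of the 3 Cimicifugae Rhizoma libraries, which left 0 calls, whereas 4 were called without Citri Unshius Pericarpium replicate 1. Cimicifugae Rhizoma itself had no member called against vehicle at any dose in edgeR or DESeq2. CXCL5 means were 0.78, 0.724 and 0.76 times vehicle at the high, medium and low dose, with every library below vehicle. Those of NFKBIE were 1.1, 1.14 and 1.31 times vehicle. An unadjusted p below 0.05 occurred for 1 member, at the medium dose. Without the 4 libraries 1 member was called there, in a fit that called 802 genes over all genes. As fitted, 0.377%, 0.0269% and 0% of all genes were called at the high, medium and low dose. Over the 15 libraries of Zizyphi Fructus and Cimicifugae Rhizoma, CXCL8 ran from 0.554 to 1.34 CPM with a median of 0.827. CXCL5 ran from 45 to 86.1 CPM with a median of 72.7, within or below the vehicle range of 84.2 to 86.4 CPM.

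**Figure D5:**
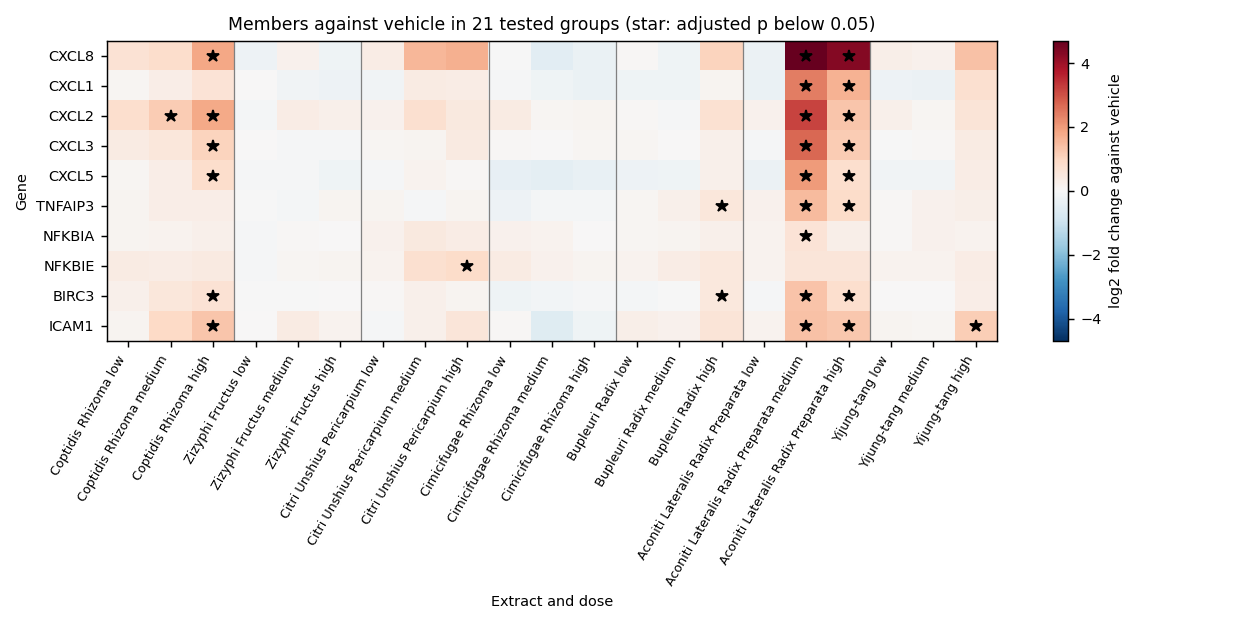
Log2 fold change against vehicle (colour, red higher and blue lower) of the 10 members in the 21 tested groups; stars mark an adjusted p below 0.05. Stars gather in the medium and high dose of Aconiti Lateralis Radix Preparata (9 and 8 members) and the high dose of Coptidis Rhizoma (6 members), and no member was called lower in any of the 21.

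Across the 21 dose-against-vehicle tests, CXCL2, BIRC3 and ICAM1 were each called higher 4 times, CXCL8, CXCL3, CXCL5 and TNFAIP3 3 times, CXCL1 2 times and NFKBIA and NFKBIE 1 time. No member was called lower. In the low and medium doses not yet named, edgeR and DESeq2 called none of the members and no unadjusted p was below 0.05. Over all genes, 0.00539% were called for Citri Unshius Pericarpium low and for Bupleuri Radix medium, 0.0108% for Yijung-tang medium, and 0% for Bupleuri Radix low and Yijung-tang low. Between high and low dose, Zizyphi Fructus (0% of all genes) and Cimicifugae Rhizoma (0.221%) had no call among the members either, with edgeR or DESeq2 and no unadjusted p below 0.05. All 21 tests against vehicle share its 3 libraries, and those libraries form a set of their own by their codes. A shift of a whole set against vehicle and an effect common to its medicines therefore cannot be told apart. Comparisons of doses, or of extracts from 1 set, need no vehicle.

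Some members varied together over the groups, and so did other genes with them. Over the 25 group means of log2 CPM, which share depth and library set and include 3 single libraries, Pearson's r was 0.961 between CXCL3 and CXCL5 and 0.958 between CXCL2 and CXCL3. BIRC3 followed CXCL5 at 0.936. NFKBIE was the least alike, at 0.440 with CXCL5 and with TNFAIP3, and at 0.795 with NFKBIA. The same measure was taken against 10804 genes with a mean of at least 5 CPM. The genes most like CXCL8 were PHLDA1 (0.957), CDCP1 (0.942) and NT5E (0.931). CDCP1 ran from 4.23 CPM in vehicle to 53.1 CPM at the medium dose of Aconiti Lateralis Radix Preparata. Nearest to TNFAIP3 were ENC1 (0.943), HMGA2 (0.938) and FMN2 (0.938). Nearest to NFKBIA were RPP25 (0.928), ALKBH2 (0.906) and TRIM7 (0.899). These r were above the highest with a member. That was 0.922 for CXCL8 (with CXCL1), 0.904 for TNFAIP3 (with BIRC3) and 0.795 for NFKBIA (with NFKBIE).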

How the data were processed

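RNA sequencing of 59 A549 libraries was analysed, from strand-specific mRNA libraries read as pairs of 100 bp, per the labels' protocols. The authors deposited 1 table of expected counts per gene; the submitters' processing notes name RSEM 1.3.3 and STAR 2.7.3a, with FastQC 0.11.9 and Trim Galore 0.6.5. Its other 210 per-sample columns were not used. The expected counts (84.4% whole) were rounded, and 94% of gene IDs matched GENCODE 29. Replicates are separate libraries per the labels; nothing says that they are separate cultures, so the p-values measure the spread between these libraries, which may be technical.

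Genes were filtered with filterByExpr (minimum count 10, minimum total 15), which left 18568, and scaled by TMM. edgeR 4.0.16 in R 4.3.3 fitted 1 quasi-likelihood model of 25 group means to all 59 libraries (34 residual degrees of freedom). Benjamini-Hochberg adjustment was done per comparison over all tested genes, with a threshold of 0.05. Standard errors were taken as the log2 fold change over the root of F. Banhasasim-tang had no replicates and was described by its fold over the vehicle mean. CPM were computed from the scaled libraries.

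The alternatives were DESeq2 1.42.0, RLE size factors, no filter, the compared libraries alone, a replicate block and leaving out each library. After the data were seen, leaving out the 4 libraries that stand apart and the comparisons of the medium dose of Aconiti Lateralis Radix Preparata with its other doses were added. Replicate numbers come from the labels. Same-numbered libraries deviated together in every pair, the rule for pairing, only for Citri Unshius Pericarpium high against low dose (correlations 0.12 to 0.24). Members and gene lists were chosen with earlier results of these data known. The members are named throughout. Genes of a list were named from the up to 4 with the smallest adjusted p among those called in a comparison. TNF, IL1B, CSF3, CXCL6, CCL2, CXCR1 and CXCR2, which were not called, were named after their values were seen. So were CEBPD, TIA1 and HNRNPD. The genes most alike were the 3 with the highest r. A test on simulated counts recovered the known changes, which were set in higher-count genes for Aconiti Lateralis Radix Preparata high dose against vehicle. It did not cover groups of 2 libraries, low-count genes or changes smaller than those set. Depth limits the low members: CXCL8 had 9 to 831 counts per library.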

Additional observations from a re-analysis of the deposited data

How the results depend on the processing

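Of 63 calls of members over 33 comparisons, 40 were kept in every alternative run for them, including 9 of 9 at the medium dose of Aconiti Lateralis Radix Preparata and 7 of 8 at its high dose. RLE size factors moved no count of members called by over 1.5 times. With only the libraries compared, the counts became 10 at the high, 8 at the medium and 3 at the low dose of Coptidis Rhizoma, 7, 2 and 1 for Bupleuri Radix, 1 at the low dose of Aconiti Lateralis Radix Preparata, 7 for Yijung-tang high and 0 for Citri Unshius Pericarpium high. Between high and low dose they became 6 for Coptidis Rhizoma, 6 for Bupleuri Radix and 5 for Yijung-tang. Citri Unshius Pericarpium against Cimicifugae Rhizoma gave 0, Bupleuri Radix against Aconiti Lateralis Radix Preparata 7, and Aconiti Lateralis Radix Preparata medium against high dose 8. Over all genes this setting called 7157, 4340 and 2267 at the high, medium and low dose of Coptidis Rhizoma. For Bupleuri Radix these were 4311, 2053 and 2001. They were 1234 at Aconiti Lateralis Radix Preparata low, 3093 at Yijung-tang high and 0 at Citri Unshius Pericarpium high. Between high and low dose they were 4342, 1585 and 692 for Coptidis Rhizoma, Bupleuri Radix and Yijung-tang. For the comparisons named last they were 6, 1548 and 4567.

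Without the low-count filter there were 2 calls of members at Coptidis Rhizoma medium, 2 at Citri Unshius Pericarpium high and 4 at its medium dose. Between high and low dose there were 3 for Coptidis Rhizoma, 2 for Citri Unshius Pericarpium and 3 for Bupleuri Radix. Over all genes these fits called 416, 2100 and 642 at the doses named, and 285, 2063 and 275 between high and low dose. DESeq2 gave 2 calls of members at Coptidis Rhizoma medium, 3 at Citri Unshius Pericarpium high and 1 for its high against low dose. Over all genes it called 742, 1794 and 1643 there. The replicate block gave 2 calls of members at Coptidis Rhizoma medium and 1 for Citri Unshius Pericarpium high against low dose. Over all genes it called 637 and 796 there. It moved no other count of members by over 1.5 times. Without the 4 libraries that stand apart, there were 3 calls of members at Coptidis Rhizoma medium and 1 at low. There were 6 at Citri Unshius Pericarpium medium, 1 at Cimicifugae Rhizoma medium, 4 at Bupleuri Radix high and 2 at Yijung-tang high. Over all genes 2272, 646, 515, 802, 2623 and 1670 were called at these doses. Between high and low dose there were then 4 calls of members for Coptidis Rhizoma, 1 for Citri Unshius Pericarpium, 4 for Bupleuri Radix and 1 for Yijung-tang. Bupleuri Radix against Aconiti Lateralis Radix Preparata gave 6. Over all genes 1659, 156, 1019, 413 and 958 were called in these comparisons. The cause of these shifts was not tested. The number of called genes over all genes tested moved by over 1.5 times in 29 of 33 comparisons with only the libraries compared, in 31 without the 4 libraries, in 21 without the filter, in 17 with DESeq2, and in 0 with RLE size factors or the block. Without the 4 libraries it rose from 864 to 2746 at Aconiti Lateralis Radix Preparata high, from 2332 to 5116 at Coptidis Rhizoma high and from 624 to 2623 at Bupleuri Radix high, and fell from 821 to 266 at Citri Unshius Pericarpium high; with only the libraries compared these were 3881, 7157, 4311 and 0.

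Leaving out 1 library gave 3 to 6 calls at Coptidis Rhizoma high, 0 to 1 at its medium dose, 0 to 4 at Citri Unshius Pericarpium high and at its medium dose, 0 to 1 at Bupleuri Radix high and 0 at Yijung-tang high. Between high and low dose it gave 0 for Coptidis Rhizoma, 0 to 3 for Citri Unshius Pericarpium and 0 to 1 for Bupleuri Radix. Coptidis Rhizoma against Zizyphi Fructus gave 2 to 3, Citri Unshius Pericarpium against Cimicifugae Rhizoma 0 to 4, and Aconiti Lateralis Radix Preparata medium against high dose 3 to 5. CXCL8 for Citri Unshius Pericarpium against Cimicifugae Rhizoma turned to -0.03 without Citri Unshius Pericarpium replicate 2 and reached 2.42 without replicate 3. Where 1 library remained in a group, it was assumed to vary like the other groups.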
